A study of Rattus norvegicus with 6 samples.

Results

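The mitotic and DNA replication genes described here are 45 genes, chosen by name, out of 22835 in the count table. All 45 were found there, and all 45 passed the filter on low counts that left 16548 genes for testing. By role, 28 belong to mitosis (proliferation markers, mitotic cyclins and kinases, kinetochore and spindle checkpoint, spindle motors and cytokinesis) and 17 to DNA replication (S phase entry, origin licensing, replication fork and nucleotide supply).

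The rats were females on an SD background, 12 weeks old, 3 per genotype and 6 in all, and RNA was taken from lung tissue. The ND1_cKO rats (genotype label ND1 cKO, DP in the sample titles) carry LSL-DdCBE-ND1, a silent allele of a base editor aimed at the mitochondrial ND1 gene, together with Sftpc-Cre, which switches the editor on. Sftpc encodes surfactant protein C and its promoter works in alveolar type 2 cells, so the edit is aimed at those cells while the RNA holds all cells of the tissue. Controls were ND1LSL littermates of the same age, which hold the silent allele per the series description, although the sample labels call them WT. Cre and the active editor differ between the genotypes together with the edit, so their effects cannot be told apart. The study asks how transcripts of the lung differ in fibrosis that follows loss of ND1 in the epithelium.

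Libraries held 28669995 to 38303274 counts, and levels are given as CPM, read counts scaled to one common library size after TMM normalization. The 45 genes together took 372 to 676 CPM of a control library and 628 to 966 CPM of an ND1_cKO library. Single genes had between 23 and 3069 reads in a library. ND1 transcripts were at 2732 ± 329 CPM in controls and 3614 ± 165 CPM in ND1_cKO (SD, n = 3). Every ND1_cKO library lay above every control library, with an edgeR adjusted p of 0.125 and a DESeq2 adjusted p of 0.0144. Read counts do not show the edit itself. Lung markers were present in every library, with Sftpc at 12903 to 15473 CPM in controls and 5301 to 10376 CPM in ND1_cKO.

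A dividing cell copies its DNA in S phase and separates the copies in mitosis. Origins are licensed by loading the MCM helicase, which CDC45 and the GINS complex then convert into the moving helicase, while E2F transcription factors switch on many of the genes involved. Later in the cycle CDK1 with cyclins A and B, and the Polo-like and Aurora kinases, drive mitosis, and B-MYB and FOXM1 work with the MuvB complex on the promoters of mitotic genes. In resting cells the DREAM complex holds both groups of genes down. In adult lung few cells divide, and type 2 cells, macrophages, endothelium and fibroblasts can all re-enter the cycle after injury.

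All 45 genes had a higher fitted level in ND1_cKO, with a median log2 fold change of 1.02 against 0.013 over all genes tested, of which 51.9% were above 0. The mitosis genes had a median log2 fold change of 1.18 (2.27-fold) and the replication genes 0.42 (1.34-fold). By the edgeR quasi-likelihood test, 1 of 45 rose and 0 fell at adjusted p below 0.05, where 1.14% of all genes rose and 1.28% fell. The 1 gene was Anln, which encodes anillin, the scaffold of the contractile ring that divides the cell. At an unadjusted p below 0.05, 26 of 45 were higher and 0 lower, against 11.1% and 10.2% of all genes. DESeq2, the tool that the series description gives for differential expression, called 22 of 45 higher and 0 lower (5.73% and 5.29% of all genes), the 22 being 21 of 28 mitosis genes and 1 of 17 replication genes. With the study's added limit of an absolute log2 fold change above 1, DESeq2 called 19 higher and 0 lower (2.6% and 1.21% of all genes). limma-voom with library weights called 17 higher and 0 lower (2.82% and 2.92% of all genes), all of them among the 22. In 20 of 45 genes every ND1_cKO library lay above every control library, which held for 14.1% of all genes tested, and in 0 the reverse (14.1%); 19 of the 20 were mitosis genes and the other was Rrm2. In RNA from bulk tissue, fewer cells of a type and less RNA per cell cannot be told apart, and the same holds for more cells and more RNA.

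**Figure D1:**
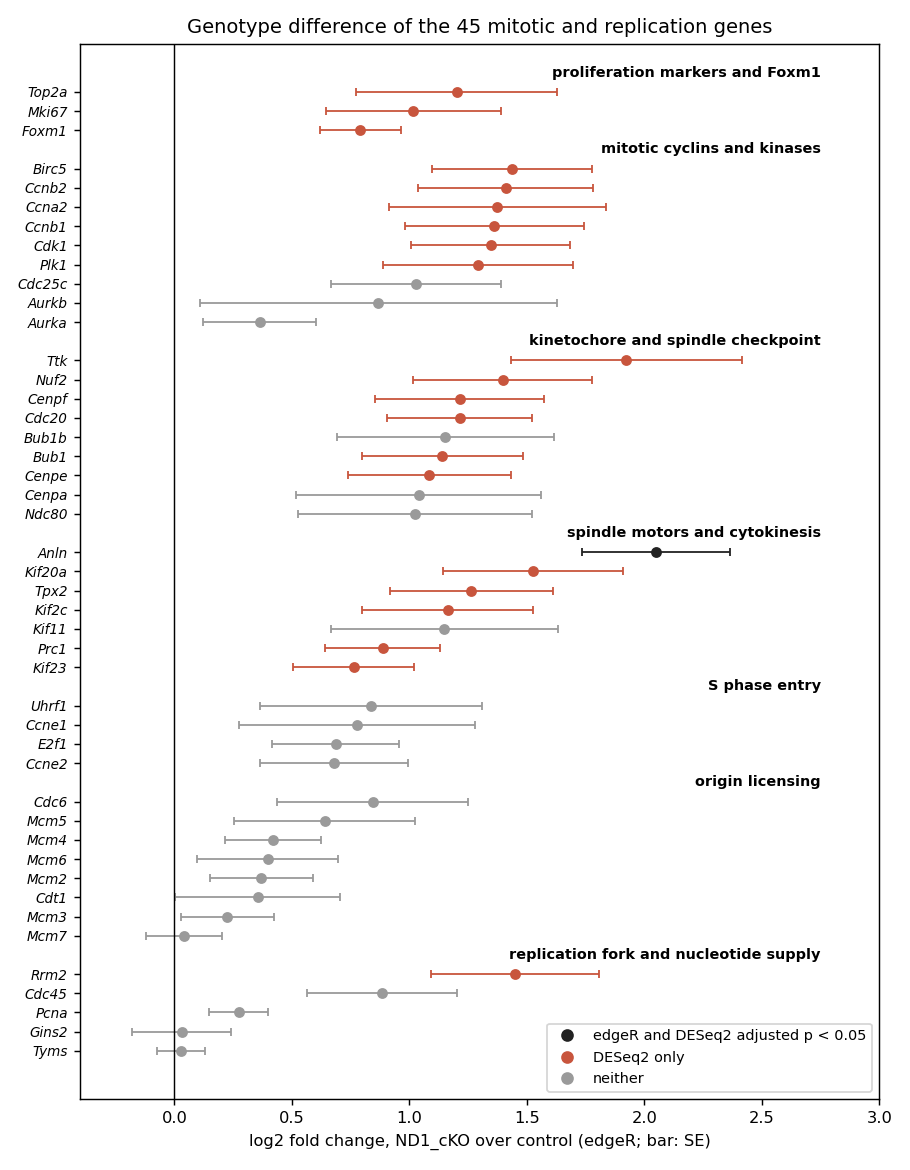
Log2 fold change of ND1_cKO over control from edgeR on the x axis, with its SE as a bar, for the 45 genes grouped by role on the y axis. Dark points passed edgeR and DESeq2 (Anln), red points DESeq2 alone, and grey points neither; all points lie to the right of 0, and those of Mcm7, Gins2 and Tyms lie closest to it.

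The promoters of the genes are shown because the classes differ in the letters their promoters hold. RefSeq windows of the GRCr8 assembly, 250 bases before to 50 after a gene's start, were found by symbol for 36 of the 45 genes (24 mitosis and 12 replication). Foxm1, Ccna2, Aurkb, Tpx2, Ccne2, E2f1, Cdc6, Mcm4 and Rrm2 had no entry. Windows were searched on both strands for CCAAT, for the CHR element known from promoters of mitotic genes (TTTGAA or else TTTAAA) and for E2F letters. The E2F letters were TTCCCGC and also TTGGCGC, with the further spellings TTCGCGC and likewise TTGCCGC. Hits of different motifs overlapped in 2 windows of these genes. The first 2 sequences are of the mitosis genes with the lowest p-values that have a CHR match (Anln at chr8:29197464-29197763, minus strand; Birc5 at chr10:103571896-103572195, plus strand), the last 2 of the replication genes with the lowest p-values that have an E2F match (Uhrf1 at chr9:1222050-1222349, plus strand; Mcm2 at chr4:122918045-122918344, minus strand), each written 5′ to 3′ along the gene. Capitals mark the CHR and CCAAT letters in the first pair and the E2F and CCAAT letters in the second, on either strand; CHR letters in the Mcm2 window are left in lower case.
Anln: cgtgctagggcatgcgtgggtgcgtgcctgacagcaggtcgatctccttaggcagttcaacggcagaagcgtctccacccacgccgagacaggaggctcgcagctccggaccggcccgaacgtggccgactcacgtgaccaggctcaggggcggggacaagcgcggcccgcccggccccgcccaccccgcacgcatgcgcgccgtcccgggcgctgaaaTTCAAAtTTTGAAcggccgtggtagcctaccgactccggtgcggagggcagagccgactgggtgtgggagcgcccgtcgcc
Birc5: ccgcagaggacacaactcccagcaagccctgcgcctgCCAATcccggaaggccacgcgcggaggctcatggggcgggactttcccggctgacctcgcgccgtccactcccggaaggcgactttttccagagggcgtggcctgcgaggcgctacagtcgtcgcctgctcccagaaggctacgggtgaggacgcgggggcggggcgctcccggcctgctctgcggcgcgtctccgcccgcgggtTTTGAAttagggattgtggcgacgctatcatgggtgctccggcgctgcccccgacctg
Uhrf1: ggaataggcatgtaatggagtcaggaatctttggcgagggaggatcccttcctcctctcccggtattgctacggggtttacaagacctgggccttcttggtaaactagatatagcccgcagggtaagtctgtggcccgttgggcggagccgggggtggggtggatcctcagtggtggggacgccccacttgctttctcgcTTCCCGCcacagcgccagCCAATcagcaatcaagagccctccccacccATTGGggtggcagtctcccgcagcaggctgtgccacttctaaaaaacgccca
Mcm2: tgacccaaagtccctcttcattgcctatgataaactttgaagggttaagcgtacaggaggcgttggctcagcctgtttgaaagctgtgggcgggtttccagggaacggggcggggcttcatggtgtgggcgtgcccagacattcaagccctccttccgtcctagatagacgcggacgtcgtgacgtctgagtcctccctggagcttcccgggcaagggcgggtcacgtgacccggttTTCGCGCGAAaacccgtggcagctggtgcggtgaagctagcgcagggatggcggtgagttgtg

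CHR letters were present in 24 of 24 mitosis genes with a window and in 2 of 12 replication genes (16.7%), against 21.4% of 12794 tested genes with a window and 29.7% of all 27457 genes with one. E2F letters showed the opposite split, with 8 of 12 replication genes (66.7%) and 4 of 24 mitosis genes (16.7%), against 16.5% of tested genes and 10.6% of all. All 6 licensing genes with a window held them (100%). CCAAT stood in 17 of 24 mitosis genes and 8 of 12 replication genes, against 38.9% of tested genes. CHR and CCAAT letters occurred together in 17 mitosis genes and in 0 replication genes, against 9.22% of tested genes. The Anln window holds 2 CHR matches side by side on opposite strands and no CCAAT, and the Uhrf1 window is 1 of 3 that RefSeq gives for that gene. These matches describe letters in a window and are not evidence of a bound factor.

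**Figure D2:**
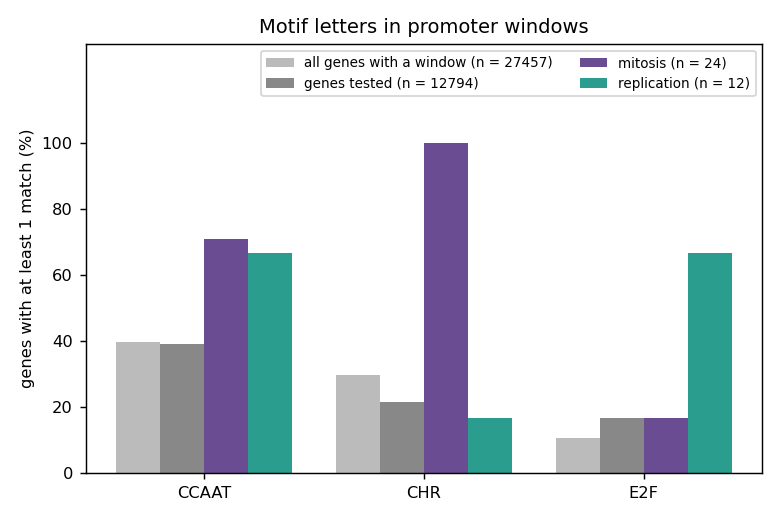
Percent of genes (y axis) with at least 1 match to CCAAT, CHR or E2F letters (x axis) in their promoter windows, for all genes with a window, tested genes, mitosis genes and replication genes. The mitosis bar reaches 100% for CHR and the replication bar 66.7% for E2F, while both classes are near 70% for CCAAT.

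Among the proliferation markers, Mki67 encodes Ki-67, a coat of mitotic chromosomes. It was at 42.5, 16.5 and 26.1 CPM in control replicates 1, 2 and 3 and at 64.4, 68.5 and 39.4 CPM in ND1_cKO replicates 1, 2 and 3. Control replicate 1 lay above ND1_cKO replicate 3, so the genotypes overlapped, and the 2.02-fold difference (log2 1.02 ± 0.37 SE) did not pass edgeR (adjusted p = 0.188), while DESeq2 called it (adjusted p = 0.0266). Top2a, the topoisomerase that untangles sister chromatids, overlapped in the same way, at 33.8, 12.2 and 19.6 CPM in controls and 57.8, 62.9 and 30.3 CPM in ND1_cKO (2.30-fold). Foxm1, the transcription factor of mitotic genes, differed less but more evenly. Its levels were 5.50, 4.89 and 6.47 CPM in controls and 10.2, 10.4 and 8.50 CPM in ND1_cKO, with no overlap. Its log2 fold change of 0.79 ± 0.17 had an edgeR adjusted p of 0.061, the second lowest of the 45, and a DESeq2 adjusted p of 0.00153.

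Of the 9 mitotic cyclins and kinases, 7 were higher without overlap between genotypes (14.1% of all genes) and 6 were called higher by DESeq2 (5.73%). Cdk1, the kinase that starts mitosis, was at 9.73, 4.59 and 5.85 CPM in controls and 19.7, 20.4 and 11.2 CPM in ND1_cKO. That is a 2.54-fold difference (log2 1.34 ± 0.34, edgeR adjusted p = 0.0874) with control replicate 1 and ND1_cKO replicate 3 next to each other. The cyclin partners of Cdk1 had nearly the same fold: Ccna2 2.59-fold, Ccnb1 2.57-fold and Ccnb2 2.66-fold. Cdc25c, the phosphatase that activates CDK1, was 2.04-fold higher, and Plk1, the Polo-like kinase, 2.45-fold. Birc5, which encodes survivin of the chromosomal passenger complex, was at 1.88 ± 0.75 CPM in controls and 5.10 ± 1.09 CPM in ND1_cKO (SD, n = 3, no overlap), with an edgeR adjusted p of 0.0727.

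The Aurora kinases stood apart from that group, Aurka by a small difference and Aurkb by its spread. Aurka, the kinase of the spindle poles, was at 10.4, 5.67 and 7.02 CPM in controls and 10.8, 10.4 and 8.50 CPM in ND1_cKO, a 1.29-fold difference that neither tool called. Aurkb, the kinase of the chromosomal passenger complex, was at 27.0, 5.91 and 4.99 CPM in controls and 16.8, 39.0 and 13.6 CPM in ND1_cKO. Control replicate 1 was therefore second highest of the 6 libraries for Aurkb, and the gene had the widest spread of the 45, with a biological coefficient of variation of 0.62. Its partner in the same complex, Birc5, had 0.31. Aurkb was 1.83-fold higher (log2 0.87 ± 0.76 SE), with an edgeR adjusted p of 0.560 and a DESeq2 adjusted p of 0.618.

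Kinetochore and checkpoint genes were similar to the cyclins, with 9 of 9 above a log2 fold change of 1. Of these, 6 were higher without overlap (14.1% of all genes) and 6 were called higher by DESeq2 (5.73%). Ttk, the MPS1 kinase at the head of the spindle checkpoint, had the largest difference of the 9. It was at 2.80, 0.78 and 0.96 CPM in controls and 6.87, 5.70 and 4.83 CPM in ND1_cKO (3.79-fold, log2 1.92 ± 0.49, edgeR adjusted p = 0.087). The checkpoint kinase gene Bub1 was 2.20-fold higher, Bub1b, which encodes BUBR1, 2.22-fold, and Cdc20, the activator of the anaphase-promoting complex, 2.32-fold. Of the NDC80 complex, which grips microtubules, Nuf2 did not overlap (2.63-fold) and Ndc80 did (2.03-fold). The centromeric histone gene Cenpa was 2.05-fold higher with overlap, the kinetochore motor gene Cenpe 2.12-fold and Cenpf 2.32-fold, the last 2 without overlap.

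Spindle and cytokinesis genes included the single gene that passed edgeR. Anln was at 5.74, 2.40 and 3.58 CPM in controls and 17.8, 17.4 and 13.4 CPM in ND1_cKO. Its lowest ND1_cKO library was well above its highest control, and it rose 4.14-fold (log2 2.05 ± 0.31, edgeR adjusted p = 0.0325; DESeq2 adjusted p = 9.96e-09; higher in 3 of 3 ND1_cKO libraries). The call was lost without control replicate 2 (adjusted p = 0.121), control replicate 3 (0.141) or ND1_cKO replicate 1 (0.0824), when the log2 fold change was 1.79, 1.99 and 1.97. In RefSeq the span of Anln overlaps that of Matcap2, which was at 1.68 to 2.48 CPM in controls and 2.37 to 3.14 CPM in ND1_cKO.

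Of the kinesins, Kif20a, a motor of the central spindle, was 2.88-fold higher (5.58 ± 2.45 to 16.1 ± 5.55 CPM). Kif2c, which takes microtubules apart at centromeres, was 2.24-fold higher. Kif11, which pushes spindle poles apart, was 2.22-fold higher with overlapping genotypes, and Kif23, a motor of the cytokinetic midzone, 1.70-fold, also overlapping. Tpx2, a spindle assembly factor that activates Aurora A, was 2.40-fold higher, and Prc1, which bundles midzone microtubules, 1.85-fold, at 16.6 to 28.0 CPM in controls and 29.1 to 45.9 CPM in ND1_cKO. Apart from Anln none of the 7 passed edgeR, whose adjusted p-values for the other 6 were between 0.0876 and 0.235.

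Genes of S phase entry overlapped in 4 of 4 cases, as did 11888 of all 16548 genes tested. By edgeR, DESeq2 or limma-voom with weights 0 were called, where 1.14%, 5.73% and 2.82% of all genes were called higher. At an unadjusted edgeR p below 0.05 there was 1 of 4, against 11.1% of all genes higher. Such counts do not set a role of this size apart from other genes. E2f1, the transcription factor that opens S phase, was at 9.80, 5.89 and 9.53 CPM in controls and 16.2, 14.9 and 9.46 CPM in ND1_cKO. ND1_cKO replicate 3 was therefore below control replicates 1 and 3 in E2f1, and the 1.61-fold difference had an edgeR adjusted p of 0.207. Of the cyclin E genes, partners of CDK2, Ccne1 was 1.71-fold higher and Ccne2 1.60-fold. Uhrf1, which brings DNA methylation to newly made DNA, was 1.79-fold higher.

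Licensing genes had small differences, with a median log2 fold change of 0.38. The genotypes overlapped in 8 of 8, and 0 were called by edgeR, DESeq2 or limma-voom with weights, none at an unadjusted edgeR p below 0.05. Of all genes tested, 11888 of 16548 overlapped. The shares of all genes called higher and lower were 1.14% and 1.28% by edgeR and 5.73% and 5.29% by DESeq2. They were 2.82% and 2.92% by limma-voom with weights. At an unadjusted edgeR p below 0.05 they were 11.1% and 10.2%. The counts of a role with 8 genes do not set it apart either. The loading factor gene Cdc6 was 1.79-fold higher, and Cdt1, which loads MCM with CDC6, 1.28-fold. The 6 subunit genes of the MCM helicase ring were between 1.03-fold (Mcm7) and 1.56-fold (Mcm5) higher. Mcm5 was at 25.2, 8.59 and 17.1 CPM in controls and 30.4, 29.5 and 19.4 CPM in ND1_cKO. Mcm7 was at 53.1, 41.3 and 43.1 CPM and at 56.1, 47.5 and 37.7 CPM, where the lowest library is an ND1_cKO one. Mcm2 (1.29-fold), Mcm3 (1.17-fold), Mcm4 (1.34-fold) and Mcm6 (1.32-fold) lay between these.

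Genes of the fork and of nucleotide supply split into a pair with larger differences and a trio with small ones. Rrm2, the subunit of ribonucleotide reductase whose supply limits the making of deoxynucleotides, was at 12.2, 5.05 and 6.40 CPM in controls and 23.3, 25.8 and 15.5 CPM in ND1_cKO. Of the 17 replication genes of the set, only Rrm2 was without overlap and only Rrm2 was called by DESeq2. It was 2.73-fold higher (log2 1.45 ± 0.36, edgeR adjusted p = 0.0851, DESeq2 adjusted p = 0.000672). The helicase activator gene Cdc45 was 1.84-fold higher with overlap. Pcna, the sliding clamp of the fork, was 1.21-fold higher (64.7 ± 9.79 to 78.1 ± 5.98 CPM) and Gins2, a GINS subunit, 1.02-fold. Tyms, thymidylate synthase, was at 38.2, 41.4 and 45.4 CPM in controls and 41.6, 46.8 and 39.2 CPM in ND1_cKO, which is 1.02-fold with a log2 SE of 0.10. The signs of Mcm7, Gins2 and Tyms turned under some alternatives, and the other 42 genes stayed positive in 15 of 15.

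**Figure D3:**
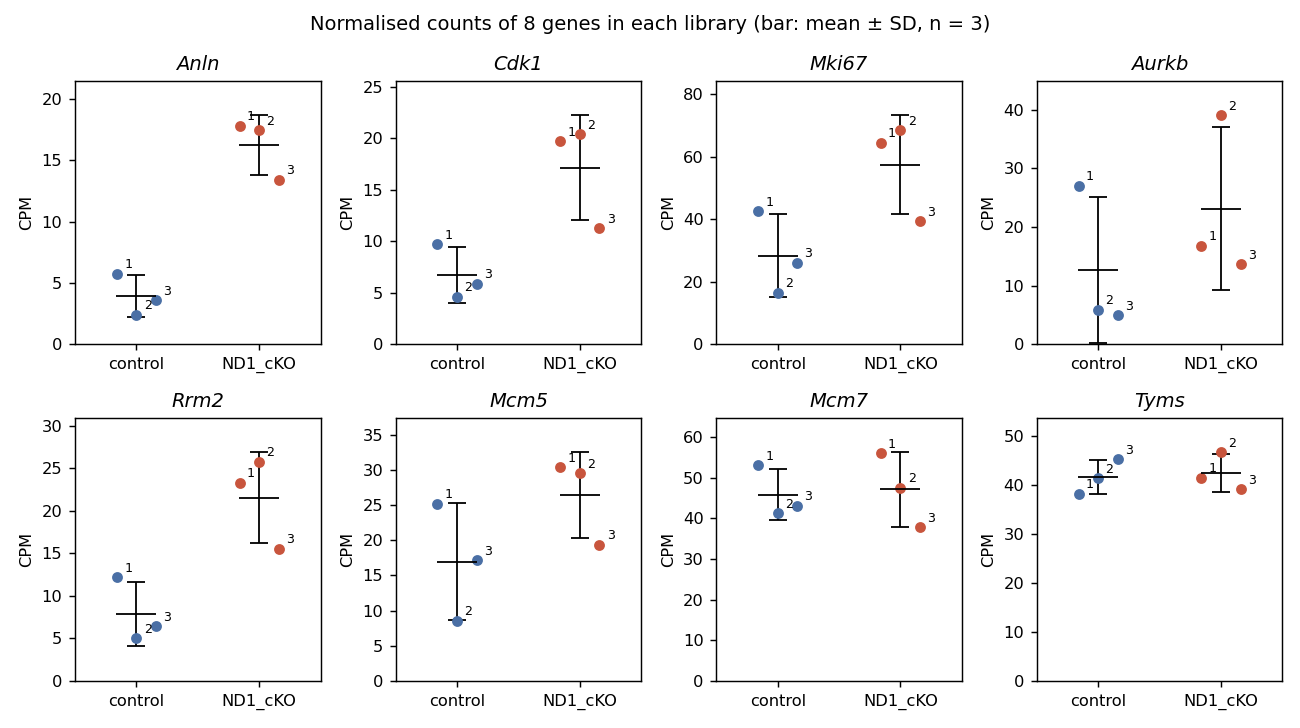
CPM (y axis) of 8 genes in the 3 control and 3 ND1_cKO libraries (x axis); numbers beside the points are replicates, and the black bars are mean ± SD. Anln, Cdk1 and Rrm2 do not overlap between genotypes, Mki67 and Mcm5 do through control replicate 1 and ND1_cKO replicate 3, Aurkb does through control replicate 1, which lies above ND1_cKO replicates 1 and 3, and Mcm7 and Tyms lie at the same level in both.

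Some places in the order of the libraries were nearly the same from gene to gene. Control replicate 1 was the highest control in 43 of 45 genes and control replicate 2 the lowest in 41, whereas over all genes tested these places fell to them in 36.7% and 34.9%. ND1_cKO replicate 3 was the lowest ND1_cKO library in 45 of 45 genes, against 38.3% of all genes. The highest ND1_cKO library was not constant: it was replicate 2 in 27 genes and replicate 1 in 18, with replicate 2 in 22 of 28 mitosis genes and replicate 1 in 12 of 17 replication genes. Control replicate 1 was above ND1_cKO replicate 3 in 24 of 45 genes, 9 of 28 mitosis genes and 15 of 17 replication genes. Over all genes tested this held for a similar part, 8033 of 16548. ND1_cKO replicates 1 and 2 were both above all controls in 36 of 45 genes, against 3259 of 16548. All ND1_cKO libraries were above control replicates 2 and 3 in 40 of 45, against 3613 of 16548.

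Mean log2 levels relative to the control mean had the same order of controls in both classes, while ND1_cKO replicate 2 was highest for mitosis and replicate 1 for replication. For mitosis genes they were 0.69, -0.56 and -0.13 in control replicates 1, 2 and 3 and 1.39, 1.59 and 0.78 in ND1_cKO replicates 1, 2 and 3. The replication genes gave 0.43, -0.48 and 0.044 in controls and 0.79, 0.68 and 0.21 in ND1_cKO, so that ND1_cKO replicate 3 lay below control replicate 1. Replication minus mitosis was -0.25, 0.084 and 0.17 in controls and -0.61, -0.91 and -0.57 in ND1_cKO, which do not overlap. Control replicate 1 and ND1_cKO replicate 3 had almost equal mitosis sums, 304.8 and 304.2 CPM, with replication sums of 371 and 323 CPM. These scores are descriptions of a list chosen with results known and carry no test.

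**Figure D4:**
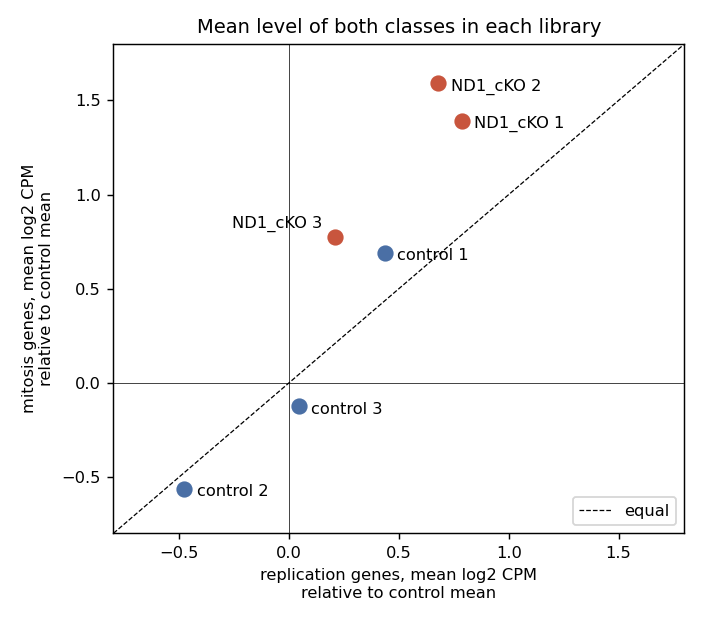
Mean log2 CPM of the 28 mitosis genes (y axis) against that of the 17 replication genes (x axis), each relative to the control mean, for the 6 libraries. The dashed line marks equal values; the 3 ND1_cKO libraries lie farther above it than any control, and control 1 and ND1_cKO 3 lie beside each other.

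The calls were repeated with each library left out in turn. Leaving out control replicate 1, the highest control in nearly all of these genes, or ND1_cKO replicate 3, the lowest ND1_cKO library, widens the difference by itself. Larger medians in those fits therefore support nothing. Without control replicate 1, edgeR called 4 of the 45 higher (Plk1, Ttk, Anln and Rrm2) and 0 lower, where all genes gave 0.653% and 0.439%, with medians of 1.68 for mitosis and 0.75 for replication. Without ND1_cKO replicate 3 it called 4 higher (Cdk1, Cdc20, Kif23 and Anln) and 0 lower, where all genes gave 1.49% and 1.46%, with medians of 1.42 and 0.54. Leaving out both was added after seeing the data, and since they are the control highest and the ND1_cKO library lowest in nearly all of these genes, a larger difference follows from the choice and supports nothing. With the 2 libraries per genotype that remain, edgeR called 25 higher (24 mitosis genes and Rrm2) and 0 lower, where all genes gave 3.03% and 2.08%. Without ND1_cKO replicate 2 it called 1 higher and 0 lower, where all genes gave 1.12% and 1.03%. Without control replicate 2 the medians were 0.91 and 0.23. The count was 0 without control replicate 2, control replicate 3 or ND1_cKO replicate 1, fits in which 0, 9 and 23 genes of the whole table were called in either direction.

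Further genes of the same pathways were listed by function. Of 34 other mitosis genes, 34 were higher with a median log2 fold change of 1.25. Here edgeR called 1 higher and 0 lower (1.14% and 1.28% of all genes), and 5 higher without ND1_cKO replicate 3 (1.49%). DESeq2 called 28 higher (5.73%), and 24 were higher without overlap (14.1% of all genes). The 1 gene was Kif4a, a chromosome-bound kinesin, at 11.3, 9.67 and 8.50 CPM in controls and 25.0, 21.3 and 22.1 CPM in ND1_cKO. It rose 2.32-fold (log2 1.21 ± 0.14, edgeR adjusted p = 0.0167), with no call without control replicate 2 (0.114), control replicate 3 (0.0683) or ND1_cKO replicate 1 (0.0544). Kif4a did not share the order of the set, since ND1_cKO replicate 3 was not its lowest ND1_cKO library. The next lowest p-values were those of the mitotic kinase gene Melk (3.54-fold, adjusted p = 0.0558) and of Ect2, the exchange factor that starts cytokinesis (3.43-fold, adjusted p = 0.0752).

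Of 34 other replication genes, 32 were higher and 2 lower, with a median log2 fold change of 0.41 (0.23 without control replicate 2). Of these edgeR called 0, with 9 higher at an unadjusted p below 0.05 (11.1% of all genes), and DESeq2 called 2 higher (5.73%). Without overlap between genotypes, 11 of the 34 were higher and 0 lower, against 14.1% and 14.1% of all genes. Wdhd1, a fork protein, was 1.52-fold higher (edgeR adjusted p = 0.0955), the thymidine kinase gene Tk1 2.52-fold (0.105) and the clamp loader gene Rfc4 1.31-fold (0.182). Tk1 was at 10.7, 3.89 and 8.40 CPM in controls and 21.5, 21.7 and 14.7 CPM in ND1_cKO, the same order of libraries as Rrm2 within ND1_cKO. Of 13 genes of replication stress and repair, 13 were higher with a median of 0.61. Here edgeR called 0 (5 higher at an unadjusted p below 0.05, against 11.1% of all genes) and DESeq2 2 higher (5.73%). Without overlap, 6 of the 13 were higher (14.1% of all genes). The 3 with the lowest p-values were Brca2 (1.52-fold), Fanci (2.01-fold) and Brca1 (1.85-fold), all repair genes.

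G1 cyclins and kinases had fold changes of both signs, 4 higher and 4 lower of 8, with a median log2 fold change of 0.014. The median was -0.020 when scaled by library totals only and -0.12 without control replicate 2. Here edgeR called 0, with 2 higher at an unadjusted p below 0.05 (11.1% of all genes), and DESeq2 called 2 higher (5.73%). Without ND1_cKO replicate 2 edgeR called 1 higher, Myc (adjusted p = 0.0463). Cdk4, the kinase of the D cyclins, was 1.32-fold higher (adjusted p = 0.0992) and Myc, a growth transcription factor, 1.53-fold (0.104), while the cyclin gene Ccnd1 was at -0.27 on the log2 scale (0.308). Of 22 inhibitors and DREAM repressors, 14 were higher and 8 lower with a median of 0.071 (0.018 without ND1_cKO replicate 3). Among them edgeR called 0, with 5 higher and 1 lower at an unadjusted p below 0.05 (11.1% and 10.2% of all genes). DESeq2 called 3 higher (5.73%) and limma-voom with weights 2 (2.82%). Cdkn2a, which encodes the p16 and ARF inhibitors, was at 0.16, 0.08 and 0.24 CPM in controls and 0.98, 0.65 and 1.63 CPM in ND1_cKO (log2 2.77 ± 0.56, edgeR adjusted p = 0.0533, DESeq2 0.00131). Cdkn1a, the p21 gene, was at 34.5, 40.8 and 49.0 CPM in controls and 59.4, 64.4 and 95.1 CPM in ND1_cKO (1.76-fold, adjusted p = 0.0888). For both inhibitors ND1_cKO replicate 3 was the highest library, while it was the lowest ND1_cKO library in all 45 genes of the set. Cdkn2c, an inhibitor of CDK4 and CDK6, had a log2 fold change of 0.58 (0.0963). With no filter on low counts edgeR called Cdkn2a (0.0452), and without ND1_cKO replicate 3 it called Cdkn2c (0.0407), the single inhibitor called in each.

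Marker sums of the cell types a lung sample holds are given beside these differences. Macrophage markers summed to 752 to 1506 CPM in controls and 2192 to 2449 CPM in ND1_cKO (8 of 8 found, 7 tested, 7 positive). Control replicate 1 had the highest control sum there, as for the mitosis genes, but control replicate 3 had the lowest. The most abundant gene of the list was Gpnmb, at 587 CPM in controls and 1179 CPM in ND1_cKO. Gpnmb (log2 1.01), Spp1 (3.76), Trem2 (1.94) and Siglec1 (1.01) were higher without overlap. Cd68 (0.54), Mrc1 (0.22) and Itgax (0.45) overlapped, and Marco was too low to be tested. Fibroblast markers summed to 1538 to 2095 CPM and 2594 to 8513 CPM (7 of 8 positive). Among ND1_cKO libraries replicate 3 was highest and replicate 2 lowest, the reverse of the mitosis sums of 304 and 553 CPM in those libraries. The most abundant gene of that list was Col3a1, at 832 CPM in controls and 2547 CPM in ND1_cKO. Col1a1 (log2 2.58), Col1a2 (1.65), Lum (1.34) and Cthrc1 (2.09) were also higher without overlap, while Pdgfra (-0.17), Pdgfrb (0.25) and Dcn (0.12) overlapped.

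Lymphocyte markers had lower sums in ND1_cKO. T and NK cell markers summed to 143 to 187 CPM in controls and 77.7 to 117 CPM in ND1_cKO (0 of 8 positive), and B and plasma cell markers to 1600.2 to 1909 CPM and 876 to 1455 CPM (0 of 7 positive). Endothelial markers were lower as well, at 4674 to 5399.8 CPM against 2558 to 3122 CPM (0 of 8 positive, 4 called lower by edgeR), and so were alveolar type 1 markers, at 5077 to 6130.0 CPM against 2568 to 4591 CPM (1 of 7 positive). Sums of alveolar type 2 markers overlapped, at 28206 to 32673 CPM against 20661 to 33305 CPM, with ND1_cKO replicate 3 lowest. Single genes of that list went both ways (3 of 8 positive). Sftpc (log2 -0.78), Lamp3 (-0.47) and Etv5 (-0.98) were lower without overlap, and Sftpa1 (0.63) and Napsa (0.63) higher without overlap. Sftpb (0.16), Abca3 (-0.17) and Slc34a2 (-0.33) overlapped. Sums of airway and basal, neutrophil, erythroid and mesothelial markers overlapped too, with ND1_cKO replicate 3 the highest library in each. Mesothelial markers summed to 493 CPM there, against 100 and 85.0 CPM in ND1_cKO replicates 1 and 2. Neutrophil markers summed to 200 CPM there, against 64.5 and 92.9 CPM. Sums of immature lymphocyte markers were 21.1 to 24.0 CPM against 19.3 to 20.6 CPM and came mostly from Cd1d1, with the recombinase gene Rag1 below 0.1 CPM in every library. Except for the 4 endothelial genes, edgeR called 0 genes of these lists. DESeq2 called more of them, in both directions. Those higher included Spp1 of the macrophage list (DESeq2 adjusted p = 5.41e-06) and Col3a1 (4.32e-05). Those lower included Spock2 of the alveolar type 1 list (4.29e-05), Kdr of the endothelium (0.000388), Cd3e of the T and NK cells (0.0109) and Sftpc (0.0116). It called none of the neutrophil, erythroid, mesothelial or immature lymphocyte markers. The part of these cell types in the differences of the mitotic and replication genes was not tested.

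**Figure D5:**
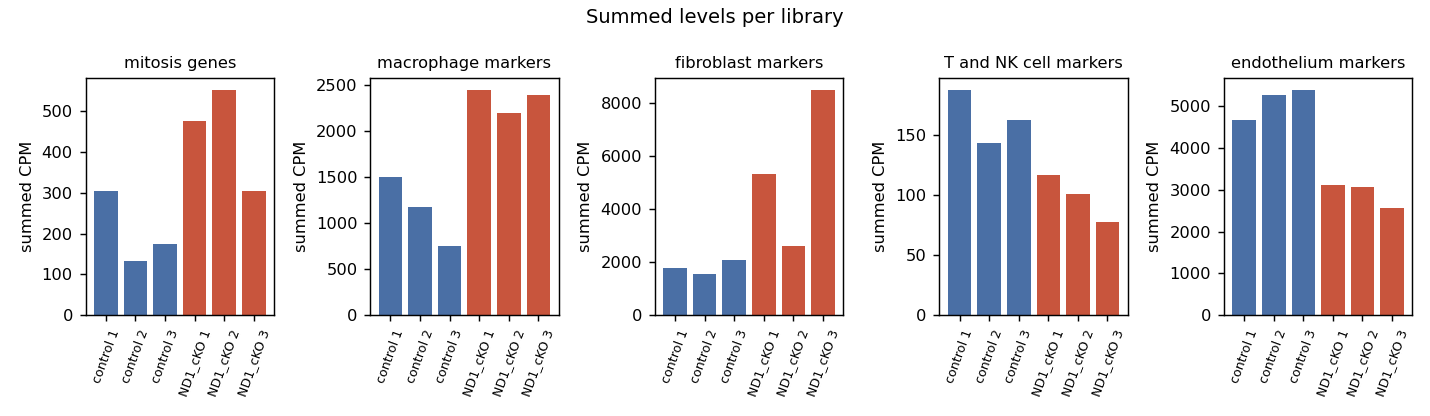
Summed CPM (y axes, from 0) of the 28 mitosis genes and of 4 marker lists in each of the 6 libraries (x axes; blue control, red ND1_cKO). Macrophage markers lie between 2192 and 2449 CPM in the ND1_cKO libraries, while the mitosis sum is 304 CPM in ND1_cKO 3, where fibroblast markers reach 8513 CPM. Col3a1 is the most abundant of the fibroblast markers.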

How the data were processed

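The authors deposited a table of unnormalized read counts, with gene symbols as rows and the 6 libraries as columns; each column was matched to its sample by the name in the sample's description, and 0 columns were left over. The submitters' processing notes name fastp, HISAT2, HTSeq and DESeq2, with R 4.3.3, and no roles; the series description gives DESeq2 for differential expression. The genome build, the annotation and the strand setting were not given in the sources used here. Since strand is unknown, reads of overlapping genes cannot be told apart. In RefSeq 9 of the 45 genes overlap another gene of the table, and their values are uncertain to that extent. Mean CPM of the overlapping genes in controls and ND1_cKO was 15.7 and 15.2 for Cys1 (with Rrm2) and 54.1 and 53.5 for Cdc23 (Kif20a). It was 60.3 and 68.2 for Ide (Kif11) and 53.3 and 49.1 for Fam210b (Aurka). It was 43.4 and 38.7 for Ints8 (Ccne2) and 84.1 and 76.6 for Gse1 (Gins2). Matcap2 (Anln), Tex52 (Foxm1) and Ern2 (Plk1) were low, the highest mean being 2.73 CPM for Matcap2 in ND1_cKO.

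Counts were tested with edgeR 4.0.16 in R 4.3.3 (filterByExpr, TMM, robust quasi-likelihood F test, two-sided, genotype as the only factor, Benjamini-Hochberg over all 16548 genes). Alternatives were DESeq2 1.42.0, limma 3.58.1 voom with library weights, other scalings and filters, the replicate number as a block, and each library left out. A positive log2 fold change means higher in ND1_cKO, its SE is its size divided by the root of the F statistic, and log2 CPM uses a prior count of 2. The genes, roles, pathway lists and marker lists were chosen with earlier results of these data known. Named genes are the 45, the 3 of each pathway list with the lowest adjusted p, and the promoters chosen by p-value and motif; genes of marker lists and genes overlapping the set were named beside a value.

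In data simulated for this comparison with 16548 genes, 100 genes were given a 2-fold and 100 a 4-fold change; edgeR found 68 and 84 of them, and 4.40% of its calls were false. DESeq2 found 72 and 86 (16.8% false), and limma-voom with weights 68 and 85 (3.77% false). Each gene was drawn on its own at the dispersion trend of the whole table. The 45 genes spread more (median biological coefficient of variation 0.31 against 0.16 over all genes) and shared an order of libraries. The shares found are therefore not the power for these genes. No 2 libraries agreed within sampling noise (the lowest chi-square per degree of freedom was 23.7, using genes with 20 or more reads per pair). The series description counts 3 rats per genotype, so each library was taken as 1 rat. The genotypes share replicate numbers in the titles without a stated pairing.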

Additional observations from a re-analysis of the deposited data

How the results depend on the processing

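Of the 45 genes, edgeR called 1 higher in the comparison as reported, and 1 also with DESeq2 size factors, library totals only, no filter, a minimum of 1 CPM or the replicate block. The count was 22 with DESeq2, 19 with DESeq2 and the study's fold threshold, 17 with limma-voom and library weights, and 25 without control replicate 1 and ND1_cKO replicate 3 together, an alternative chosen after seeing the data that had to widen the difference. In that last fit the median log2 fold changes were 1.93 for mitosis and 0.93 for replication. With single libraries left out the count ran from 0 to 4, the mitosis median from 0.91 to 1.68 and the replication median from 0.23 to 0.75. The sign reversed for Mcm7 without control replicate 2 (-0.031), control replicate 3 (-0.0035) or ND1_cKO replicate 1 (-0.11), for Gins2 with library totals only (-0.0039) and without control replicate 2 (-0.037), ND1_cKO replicate 1 (-0.060) or ND1_cKO replicate 2 (-0.031), and for Tyms with library totals only (-0.0082) and without control replicate 1 (-0.029) or ND1_cKO replicate 2 (-0.056). With libraries left out, singly or both together, the highest values were 0.30 for Mcm7, 0.24 for Gins2 and 0.094 for Tyms. The median of the G1 cyclins and kinases was -0.020 with library totals only and ran from -0.12 (without control replicate 2) to 0.14 with libraries left out. The cause was not tested. With the replicate block the medians were 1.23 and 0.46, 1 of the 45 was called, Cdkn1a was the 1 inhibitor called (adjusted p = 0.0377, against 0.0888 without the block), and calls over all genes were 262 instead of 400; deviations of same-numbered libraries correlated at 0.17, 0.024 and 0.13, so the numbers were not taken as pairs, although each library correlated best with its own number. With 3 rats per genotype and a spread between rats above that of most genes (median biological coefficient of variation 0.31 against 0.16), precision was limited; changes under 2-fold, the size seen for the licensing genes, were not simulated.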
